A study of Mus musculus with 6 samples.

Results

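Tregs that settle in tissues and tumors carry a shared set of genes for suppressive mediators and for tissue repair, and 10 of these genes were followed here in Tregs with and without the glucocorticoid receptor (GR). They are *Il10*, *Ebi3*, *Fgl2*, *Areg*, *Penk*, *Il10ra*, *Il1rl1*, *Il1r2*, *Klrg1* and *Nfil3*, chosen by name, and all 10 had a row among the 12153 genes of the expression table. RNA-Seq was done on 6 libraries of Tregs sorted from B16.F10 melanomas, a transplantable mouse tumor line, taken at day 15. The 3 control libraries came from mice with a floxed *Nr3c1*, the gene that encodes GR. The 3 Nr3c1 Foxp3-Cre libraries came from mice that carry the floxed *Nr3c1* together with a Foxp3-YFP/Cre allele, in which Cre is driven by *Foxp3* and deletes *Nr3c1* in cells that express it. Labels name no Cre or YFP allele for the control mice. The labels describe sorting for CD45, CD4 and CD25, and the methods of the study describe sorting by Foxp3-YFP, so a difference between the groups in how cells were gated cannot be told apart from the genotype. Mice of both sexes were used in the study, and the sources used here do not say which animals went into which library. P-values therefore measure the spread between these libraries, which may be technical.

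IL-10 and IL-35 are inhibitory cytokines of Tregs. IL-10 signals through a receptor whose ligand-binding chain is encoded by *Il10ra*, and *Ebi3* encodes the subunit that IL-35 shares with IL-27. *Fgl2* encodes a secreted fibrinogen-like protein that restrains dendritic cells and effector T cells. A second arm of the program serves repair: IL-33 released by damaged tissue binds ST2, the product of *Il1rl1*, and ST2-positive Tregs make amphiregulin (*Areg*), a growth factor that acts on the EGF receptor. *Il1r2* encodes a decoy receptor that captures IL-1, *Klrg1* an inhibitory receptor for cadherins that marks differentiated Tregs, *Penk* the precursor of the enkephalin opioid peptides, and *Nfil3* a basic leucine zipper transcription factor. GR is a hormone-activated transcription factor that binds short DNA elements and also represses other factors, so the comparison asks whether these genes differ when tumor Tregs lack it.

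Promoter windows were read for the members because the deleted gene encodes a DNA-binding factor. RefSeq windows of 250 bases before the transcription start (GRCm38.p6, the assembly behind mm10) were found for 6 of the 10 members, *Ebi3*, *Fgl2*, *Areg*, *Il1rl1*, *Il1r2* and *Nfil3*, with a distal and a proximal start for *Il1rl1*, so 7 windows in all. Both strands were searched. The core GR hexamer AGAACA was present in 1 of the 7 windows, that of *Ebi3*, 155 bases before the start, in 16.1% of all 32851 RefSeq promoter windows of that length, and in 10.8% of the 11963 windows of genes in the expression table. The full palindromic element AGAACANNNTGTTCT was in 0 of the 7 windows, in 0.0091% of all windows and in 0.0084% of those of table genes. The NFIL3 element TTACGTAA was likewise in 0 of the 7, against 0.113% of all windows and 0.184% of those of table genes. The following letters were added after the sequences had been seen. The AP-1 element TGANTCA was in the *Fgl2* window (6.75% of all windows, 4.35% of those of table genes), the cyclic AMP response element TGACGTCA in the *Areg* window (1.55% and 2.56%), and the GATA letters AGATAA or TGATAA in 3 windows, both of *Il1rl1* and that of *Il1r2* (16.6% and 9.39%). Matches of this length are descriptions of the letters and not binding sites. The windows with the GR hexamer, the AP-1 element, the cyclic AMP response element and, for the IL-33 receptor, the GATA letters are shown 5′ to 3′, all on the plus strand, with the matched letters in capitals. Each window ends just before the RefSeq transcript start, which need not be the GENCODE M21 gene start given with the values of each gene. For *Fgl2* the end of the window, with the AP-1 letters, lies inside the GENCODE gene, as does the whole proximal window of *Il1rl1*, and for *Ebi3* the GENCODE start lies downstream of the window.
*Ebi3*, chr17:55952373-55952622 (AGAACA): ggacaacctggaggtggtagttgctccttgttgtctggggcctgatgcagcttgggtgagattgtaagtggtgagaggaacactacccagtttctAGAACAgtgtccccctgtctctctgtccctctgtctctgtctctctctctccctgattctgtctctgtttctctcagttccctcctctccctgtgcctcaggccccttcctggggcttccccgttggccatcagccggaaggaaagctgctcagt
*Fgl2*, chr5:21372423-21372672 (AP-1): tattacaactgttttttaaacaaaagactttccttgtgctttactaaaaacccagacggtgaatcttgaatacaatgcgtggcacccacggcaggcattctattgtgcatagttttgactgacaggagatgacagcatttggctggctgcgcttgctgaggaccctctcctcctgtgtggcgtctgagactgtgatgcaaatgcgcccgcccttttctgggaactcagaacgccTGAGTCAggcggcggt
*Areg*, chr5:91139349-91139598 (cyclic AMP response element): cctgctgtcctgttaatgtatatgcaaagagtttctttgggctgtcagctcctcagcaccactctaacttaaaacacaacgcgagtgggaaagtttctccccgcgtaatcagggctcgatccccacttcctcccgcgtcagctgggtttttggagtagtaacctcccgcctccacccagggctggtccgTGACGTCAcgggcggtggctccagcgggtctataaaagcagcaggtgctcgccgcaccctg
*Il1rl1*, distal start, chr1:40429320-40429569 (GATA, at 2 places): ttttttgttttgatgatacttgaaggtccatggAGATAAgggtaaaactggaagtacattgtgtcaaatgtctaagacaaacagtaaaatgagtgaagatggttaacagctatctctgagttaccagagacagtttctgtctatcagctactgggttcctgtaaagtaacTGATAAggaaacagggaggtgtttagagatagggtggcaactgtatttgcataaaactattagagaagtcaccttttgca
*Il1rl1*, proximal start, chr1:40439379-40439628 (GATA, on the opposite strand): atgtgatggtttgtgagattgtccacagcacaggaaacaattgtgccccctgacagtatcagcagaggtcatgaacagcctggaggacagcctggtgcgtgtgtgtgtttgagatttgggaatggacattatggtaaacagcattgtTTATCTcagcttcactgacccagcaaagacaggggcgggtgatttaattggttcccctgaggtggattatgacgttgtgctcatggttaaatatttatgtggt

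The libraries were checked against their labels first. *Nr3c1* was at 7.15, 7.59 and 6.88 log2 CPM (counts scaled to a fixed library total, on a log2 scale) in control replicates 1 to 3 and at 6.14, 5.45 and 5.90 in the Nr3c1 Foxp3-Cre libraries, a log2 fold change of -1.38 (SE 0.21) with groups that did not overlap and a limma adjusted p of 0.120. Of 3 glucocorticoid-responsive genes, *Tsc22d3*, which encodes GILZ, had a log2 fold change of -1.56 (SE 0.16, limma adjusted p = 0.0342), *Dusp1* of -0.56 with groups that did not overlap (limma adjusted p = 0.652), and *Fkbp5* of -0.16 with groups that overlapped (limma adjusted p = 1.0). The *Tsc22d3* log2 fold change stayed between -1.68 and -1.37 over 16 alternatives, but its adjusted p was above 0.05 in 6 of them: 0.221 without a trend, 0.137 with a replicate block, and 0.0639, 0.140, 0.154 and 0.0712 without Nr3c1 Foxp3-Cre replicate 1, 2 or 3 or control replicate 3. Of the 7 Treg and T cell markers, all with a row, *Cd3e*, *Cd3d*, *Cd4*, *Il2ra* and *Ctla4* were between 8.20 and 10.02 log2 CPM. *Foxp3*, the defining factor of Tregs, was at 3.39 to 4.47 log2 CPM, or 1.99 log2 CPM per kb of transcript against 6.34 for *Il2ra*. Genes of neutrophils (0 of 5), B cells (0 of 3) and NK cells (0 of 2) had no row, and of 6 mast cell and basophil genes 1 (*Kit*) had one. The CD8 gene *Cd8b1* was at 2.93 to 3.96 log2 CPM, and 4 of 5 dendritic cell genes with a row summed to 34.7 to 56.0 CPM. Mast cells and basophils are other known sources of *Il1rl1* and *Areg*.

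Tumor RNA was present in every library and unevenly. The summed level of 7 melanoma genes, among them *Pmel* and *Dct*, was 9134, 3409 and 6850 CPM in control replicates 1 to 3 and 6189, 9537 and 3802 CPM in Nr3c1 Foxp3-Cre replicates 1 to 3. The 8 macrophage genes summed to 555, 369 and 441 CPM in control and 269, 540 and 306 CPM in Nr3c1 Foxp3-Cre libraries. Control replicate 2 was thus the lowest of its group in both lists and Nr3c1 Foxp3-Cre replicate 2 the highest of its group. The mean of the 7 Treg and T cell markers ran the other way, and the groups had nearly the same mean of it, at 7.97 ± 0.30 log2 CPM (SD, n = 3) in control and 7.97 ± 0.23 (SD, n = 3) in Nr3c1 Foxp3-Cre libraries (exact two-sided permutation test, p = 1.0). In a bulk library, fewer cells of a type and less RNA per cell cannot be told apart. The part of macrophage and other non-Treg RNA in the values of the members was not tested.

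None of the 10 genes differed between the groups beyond the spread between libraries. Values of the groups overlapped for every member, the log2 fold changes lay between -0.39 (*Il10*) and 0.35 (*Il1rl1*), and limma's moderated test across all 12153 genes gave every member an adjusted p of 1.0. At an adjusted p under 0.05, 0 of the 10 members were called, against 0.0576% of all genes (7 genes). At an unadjusted p under 0.05, again 0 members were called, against 3.26% of all genes. Groups that did not overlap were found for 0 members and for 7.41% of all genes. The mean was lower in Nr3c1 Foxp3-Cre Tregs for 8 members, all but *Il1rl1* and *Klrg1*, where 50.5% of all genes were lower. The median log2 fold change was -0.12 over the members and -0.0014 over all genes. In size alone the medians were 0.14 and 0.11. With 3 libraries a group, an exact two-sided permutation test cannot go below p = 0.1, and no member reached that value.

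The secreted mediators come first. *Il10* (ENSMUSG00000016529.5, chr1:131019845-131024974, plus strand) was at 4.81, 5.87 and 5.59 log2 CPM in control replicates 1 to 3 and at 5.56, 4.35 and 5.19 in Nr3c1 Foxp3-Cre replicates 1 to 3. The highest value belonged to control replicate 2 and the lowest to Nr3c1 Foxp3-Cre replicate 2, with the other 4 interleaved. The means were 5.42 ± 0.55 and 5.04 ± 0.62 log2 CPM (SD, n = 3 each), or 42.9 and 32.8 CPM as geometric means. The fold change was 0.764, with a 95% interval of 0.452 to 1.29 (limma p = 0.277 before adjustment; exact permutation p = 0.5). On the log2 scale the interval, -1.15 to 0.37, was the widest of the members.

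*Ebi3* (ENSMUSG00000003206.7, chr17:55952640-55957022, plus strand) read 6.54, 7.06 and 6.53 log2 CPM in control Tregs and 6.41, 6.55 and 6.83 in Nr3c1 Foxp3-Cre Tregs. Apart from control replicate 2, the control values lay inside the range of the Nr3c1 Foxp3-Cre values. The log2 fold change was -0.11 (SE 0.17, 95% interval -0.49 to 0.26; exact permutation p = 0.7). Exons of the antisense gene *Gm16712* overlap those of *Ebi3* in part, and the library kit does not mark the strand. Reads from the shared bases therefore cannot be assigned by strand. The antisense row was at 0.62 to 2.41 log2 CPM.

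*Fgl2* (ENSMUSG00000039899.5, chr5:21372642-21378374, plus strand) was at 7.64, 8.21 and 8.16 log2 CPM in control Tregs and at 7.87, 7.57 and 7.86 in Nr3c1 Foxp3-Cre Tregs. Control replicates 2 and 3 exceeded every Nr3c1 Foxp3-Cre library, and control replicate 1 fell among them. Its log2 fold change was -0.24 (SE 0.16, 95% interval -0.59 to 0.12; exact permutation p = 0.3). The SD was 0.32 between control and 0.17 between Nr3c1 Foxp3-Cre libraries.

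*Areg* (ENSMUSG00000029378.5, chr5:91139599-91148432, plus strand), the repair growth factor, had 5.68, 6.64 and 6.25 log2 CPM in control and 6.59, 5.86 and 5.94 in Nr3c1 Foxp3-Cre replicates. Its extremes were both control libraries, so the Nr3c1 Foxp3-Cre values lay wholly inside the control range. The means, 6.19 ± 0.48 and 6.13 ± 0.40 log2 CPM (SD, n = 3 each), differed by 0.06 on the log2 scale (SE 0.26, exact permutation p = 0.9), and the 95% interval of the log2 fold change ran from -0.64 to 0.51.

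*Penk* (ENSMUSG00000045573.9, chr4:4133531-4138819, minus strand), the enkephalin precursor, read 8.25, 9.56 and 8.70 log2 CPM in control Tregs and 8.72, 8.53 and 8.89 in Nr3c1 Foxp3-Cre Tregs, and the 3 Nr3c1 Foxp3-Cre values again sat inside the control range. The SD was 0.67 between control and 0.18 between Nr3c1 Foxp3-Cre libraries, and the log2 fold change was -0.13 (SE 0.27, 95% interval -0.74 to 0.49; exact permutation p = 0.9). *A830012C17Rik*, on the opposite strand with overlapping exons, was at -3.65 to 1.38 log2 CPM.

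**Figure D1:**
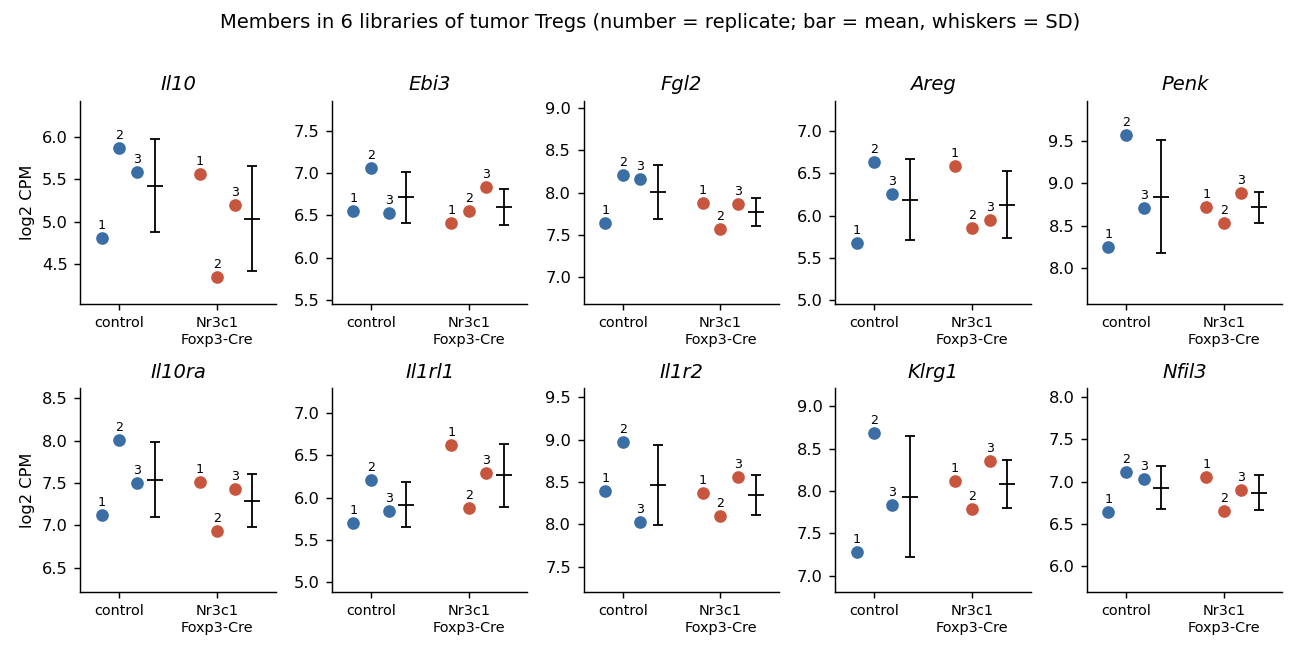
Level of each of the 10 members in log2 CPM (vertical axes, each spanning the same width) in the 3 control (blue) and 3 Nr3c1 Foxp3-Cre (red) libraries. Numbers are the replicates, and bars with whiskers are the mean and SD of each group. The groups overlap in every panel, control replicate 2 is the highest point for 9 members, and Nr3c1 Foxp3-Cre replicate 2 is the lowest of its group for 9.

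Among the receptors, *Il10ra* (ENSMUSG00000032089.16, chr9:45253837-45269149, minus strand) was at 7.12, 8.0 and 7.49 log2 CPM in control and at 7.51, 6.93 and 7.42 in Nr3c1 Foxp3-Cre Tregs. As for its ligand, control replicate 2 was highest and Nr3c1 Foxp3-Cre replicate 2 lowest. The log2 fold change was -0.25 (SE 0.22, 95% interval -0.75 to 0.25; exact permutation p = 0.5).

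*Il1rl1*, which encodes ST2 (ENSMUSG00000026069.15, chr1:40429570-40465415, plus strand), had the highest log2 fold change of the members. Control Tregs read 5.70, 6.21 and 5.84 log2 CPM and Nr3c1 Foxp3-Cre Tregs 6.62, 5.88 and 6.29. Nr3c1 Foxp3-Cre replicates 1 and 3 exceeded every control library, while replicate 2 fell between control replicates 3 and 2. The fold change was 1.27, with a 95% interval of 0.934 to 1.73 (limma p = 0.112 before adjustment; exact permutation p = 0.2).

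*Il1r2*, the IL-1 decoy receptor (ENSMUSG00000026073.13, chr1:40074079-40125231, plus strand), read 8.39, 8.97 and 8.03 log2 CPM in control and 8.38, 8.09 and 8.57 in Nr3c1 Foxp3-Cre Tregs. Both extremes were control libraries. Its log2 fold change was -0.12 (SE 0.22, 95% interval -0.61 to 0.37; exact permutation p = 0.8). The SD was 0.48 between control and 0.24 between Nr3c1 Foxp3-Cre libraries.

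*Klrg1* (ENSMUSG00000030114.8, chr6:122270596-122282882, minus strand) was at 7.27, 8.69 and 7.84 log2 CPM in control and at 8.12, 7.79 and 8.35 in Nr3c1 Foxp3-Cre Tregs. Control replicates 1 and 2 were the lowest and the highest of all 6 libraries, an SD of 0.71 against 0.28 in the other group. The log2 fold change of 0.15 (SE 0.30) had a 95% interval of -0.53 to 0.83 (exact permutation p = 0.9).

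The transcription factor *Nfil3* (ENSMUSG00000056749.7, chr13:52967209-52981073, minus strand) varied least of the members. Its levels were 6.65, 7.11 and 7.03 log2 CPM in control and 7.06, 6.65 and 6.90 in Nr3c1 Foxp3-Cre Tregs, and each group spanned nearly the same values. The log2 fold change was -0.06 (SE 0.15), with the narrowest interval of the members, -0.40 to 0.28 (exact permutation p = 0.8).

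**Figure D2:**
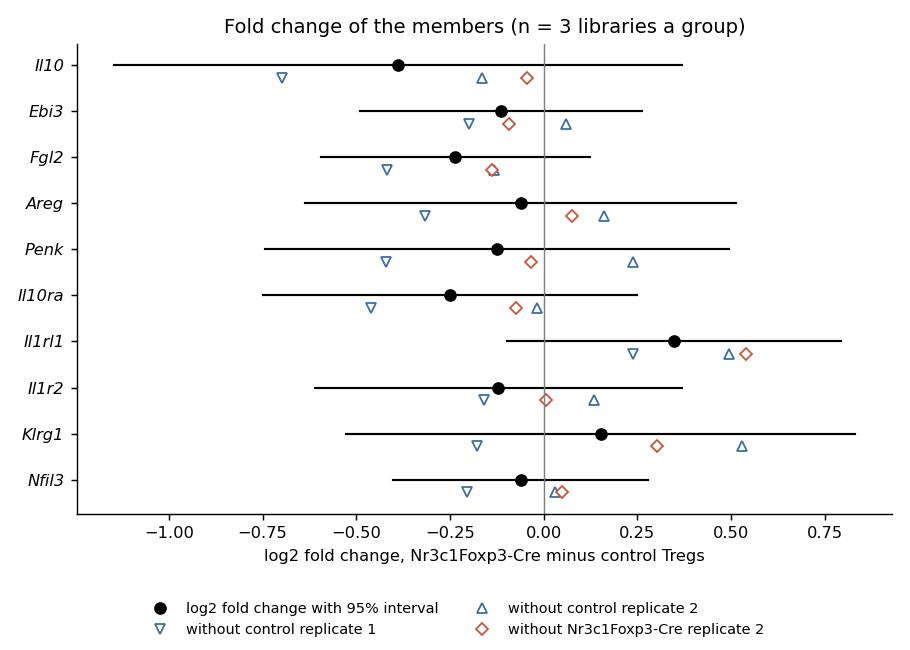
Log2 fold change of each member, Nr3c1 Foxp3-Cre minus control Tregs (horizontal axis), from all 6 libraries with its 95% interval (black), and without control replicate 1, control replicate 2 or Nr3c1 Foxp3-Cre replicate 2 (open symbols). All 10 intervals include 0, and leaving out control replicate 2 moves every member to the right of its value from all libraries.

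The members differed more between libraries of a group than most genes of like level. Their residual SD within groups had a median of 0.38 on the log2 scale, from 0.23 for *Nfil3* to 0.59 for *Il10*. The median was 0.22 over all genes and 0.15 over the 5095 genes whose mean lay between the lowest and highest member, 5.23 and 8.78 log2 CPM. All 10 members were above the latter, at percentiles of 80.1 (*Nfil3*) to 98.8 (*Il10*) of those genes. The median half-width of the members' 95% intervals was accordingly 0.49 on the log2 scale, against 0.41 over all genes. Lists of partner genes, given below, had median residual SDs from 0.21 (IL-10 and IL-35) to 0.39 (EGF receptor ligands and shedding), without matching by level. Other suppressive mediators were at 0.31 and the Treg and T cell markers at 0.28. A spread above that of most genes was thus not particular to the members.

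**Figure D3:**
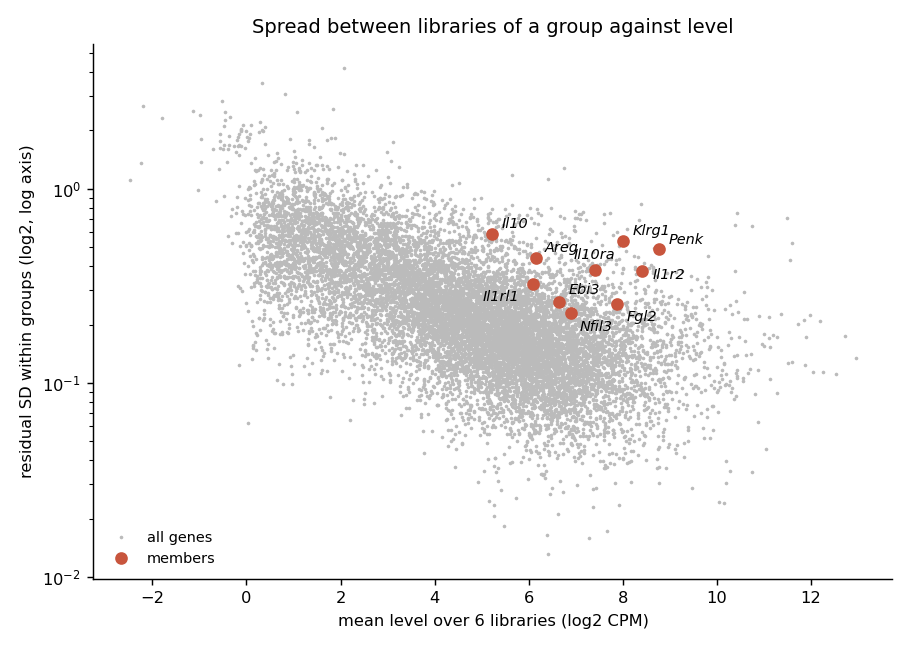
Residual SD within groups (log2, on a log axis) against the mean level over 6 libraries (log2 CPM) for all 12153 genes (grey) and the 10 members (red). The members lie in the upper part of the cloud at their level, with *Il10* at 0.59 and *Nfil3* at 0.23.

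This spread followed the libraries. Control replicate 2 was the highest of the 6 libraries for 9 of the 10 members, all but *Il1rl1*, and for 19.5% of all genes. Within the control group it was highest for all 10 (39.1% of all genes), and control replicate 1 was lowest for 8 (39.1% of all genes). Within the Nr3c1 Foxp3-Cre group, replicate 2 was lowest for 9 members, all but *Ebi3*, and for 36.8% of all genes. Summed over the members, the level was 1459, 2731 and 1780 CPM in control replicates 1 to 3 and 1910, 1508 and 1994 CPM in Nr3c1 Foxp3-Cre replicates 1 to 3. The members were not alone in this. The mean level of each partner list was also highest in control replicate 2, at 7.27 log2 CPM for other suppressive mediators. The list of EGF receptor ligands and shedding was the exception, highest in Nr3c1 Foxp3-Cre replicate 3. Members and T cell markers deviated in the same direction in every library. As a mean deviation from each gene's 6-library mean on the log2 scale, the members were at -0.35, 0.48 and -0.0055 in control and 0.13, -0.33 and 0.073 in Nr3c1 Foxp3-Cre libraries. The T cell markers were at -0.29, 0.31 and -0.014, and at 0.22, -0.24 and 0.021, in the same order. The melanoma genes were at 0.60, -0.78 and 0.26, and at 0.081, 0.54 and -0.70. Each library was therefore also set relative to its T cell marker mean, an alternative chosen after seeing the data. These markers include the Treg genes *Foxp3*, *Il2ra*, *Ctla4* and *Ikzf2*, so the step does not scale by T cell content alone.

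**Figure D4:**
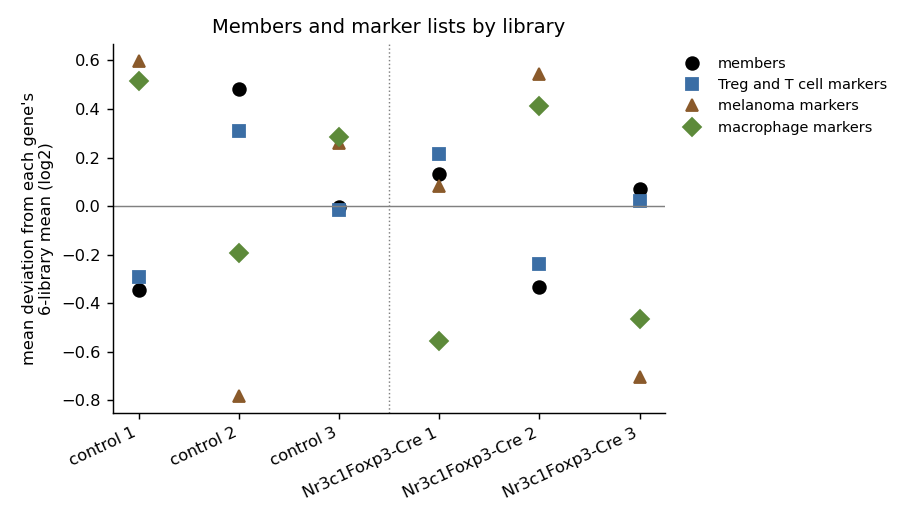
Mean deviation from each gene's 6-library mean (log2, vertical axis) in each library for the 10 members and for Treg and T cell, melanoma and macrophage markers. Members and T cell markers lie on the same side of 0 in every library, from -0.35 to 0.48 and from -0.29 to 0.31, and melanoma markers run from -0.78 to 0.60.

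Relative to the T cell markers, the median residual SD of the members was 0.24 in place of 0.38, and it was lower for 9 of the 10, all but *Ebi3*. A fall was to be foreseen, because members and markers had already been seen to deviate alike. Neither it nor the overlap of the groups on this scale is separate support. Over all genes the same step raised the median from 0.22 to 0.34. Control replicate 2 was then the highest library for 3 members. The groups no longer overlapped for 3 members, against 4.50% of all genes. *Fgl2* was at 7.93, 7.90 and 8.18 in control and 7.66, 7.81 and 7.84 in Nr3c1 Foxp3-Cre libraries on this scale. *Il10ra* was at 7.41, 7.70 and 7.51 against 7.30, 7.17 and 7.40. *Il1rl1* went the other way, at 5.99, 5.90 and 5.85 against 6.41, 6.12 and 6.27. The step subtracts 1 value per library from all genes, so by construction it shifts every log2 fold change by the same small amount. The log2 fold changes were -0.23 for *Fgl2*, -0.25 for *Il10ra* and 0.35 for *Il1rl1*, and the limma adjusted p was 1.0 for all 10 members.

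The direction of 6 members, *Ebi3*, *Areg*, *Penk*, *Il1r2*, *Klrg1* and *Nfil3*, turned when 1 library was left out. Without control replicate 2, only 3 members, *Il10*, *Fgl2* and *Il10ra*, kept a lower mean in Nr3c1 Foxp3-Cre Tregs, the median log2 fold change of the members was 0.097, and 2 members, *Il1rl1* (0.50) and *Klrg1* (0.53), had an unadjusted p under 0.05, against 5.78% of all genes. Groups did not overlap for *Il1rl1* alone there, and for 20.0% of all genes. Without control replicate 1, the median was -0.26 and 3 members had an unadjusted p under 0.05, *Il10* (-0.70), *Fgl2* (-0.42) and *Il10ra* (-0.46), against 3.18% of all genes. Of these, *Il10* and *Fgl2* had groups that did not overlap, against 15.8% of all genes. Without Nr3c1 Foxp3-Cre replicate 2, *Il1rl1* (0.54) had an unadjusted p under 0.05 and groups that did not overlap, against 3.07% and 15.6% of all genes, and 5 members had a lower mean. When limma weighted the libraries by estimated quality, *Fgl2* (-0.35) and *Il1rl1* (0.44) had an unadjusted p under 0.05, against 11.3% of all genes. In none of the 16 alternative settings did a member have an adjusted p under 0.05. *Il10*, *Fgl2* and *Il10ra* were lower and *Il1rl1* higher in Nr3c1 Foxp3-Cre Tregs in all 16, but the size depended on single libraries. *Il10* was at -0.045 without Nr3c1 Foxp3-Cre replicate 2 and -0.16 without control replicate 2, *Il10ra* at -0.072 and -0.018, *Fgl2* at -0.14 and -0.13, and *Il1rl1* at 0.17 with Nr3c1 Foxp3-Cre replicate 1 left out. The lowest limma adjusted p of any member was 0.316, for *Il1rl1* under quality weights.

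Levels of different genes were compared per kilobase of the longest protein-coding transcript, as the mean ± SD over 6 libraries in log2 CPM per kb. *Penk* (8.24 ± 0.44), *Il1r2* (7.90 ± 0.34) and *Klrg1* (7.51 ± 0.49) led the members. Neighbours among these 3 differed by less than the larger of their SDs over libraries. That SD sets aside that all genes were read in the same libraries, and *Il1r2* was above *Klrg1* in every library. *Ebi3* (6.45 ± 0.24) was below them and above *Fgl2* (5.97 ± 0.26) by more than the spread. *Fgl2*, *Nfil3* (5.88 ± 0.21), *Areg* (5.88 ± 0.40) and *Il10ra* (5.61 ± 0.37) lay within that SD of their neighbours and were not compared library by library. *Il10* (4.84 ± 0.57) and then *Il1rl1* (3.68 ± 0.35) followed, each lower than the gene before it by more than the spread. The genes of tissue Tregs thus included the highest members, an opioid precursor and a decoy receptor, and also the lowest per kb, the IL-33 receptor. That last rank rests on the transcript length used, 5302 bases. Without scaling by length *Il10* was lowest, at a geometric mean of 37.5 CPM against 68.1 CPM for *Il1rl1*.

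Partner genes of the same pathways were read from 5 lists, and 0 of the 56 with a row had an adjusted p under 0.05. An unadjusted p under 0.05 was found for 8 of them, against 3.26% of all genes. Groups did not overlap for 2 genes in each list except that of EGF receptor ligands and shedding, which had 0, against 7.41% of all genes. In the IL-10 and IL-35 list, 12 of 14 genes had a row (*Il12a*, the other subunit of IL-35, and *Il27* had none), and an unadjusted p under 0.05 was found for 1 gene with a lower and 1 with a higher mean. *Il12rb2*, a receptor chain for IL-12 and IL-35, was at 3.93, 4.38 and 3.32 log2 CPM in control and 2.76, 2.29 and 3.31 in Nr3c1 Foxp3-Cre Tregs, a log2 fold change of -1.09 (SE 0.34, limma adjusted p = 1.0). *Il6st*, which encodes the shared signaling chain gp130, was at 5.86, 5.44 and 5.60 against 6.02, 6.04 and 5.91, a log2 fold change of 0.36 (SE 0.13, limma adjusted p = 1.0). Groups did not overlap for either gene, though for *Il12rb2* control replicate 3 and Nr3c1 Foxp3-Cre replicate 3 were nearly equal. The second IL-10 receptor chain *Il10rb* was nearly level across the libraries, 7.14 ± 0.017 log2 CPM in control and 7.10 ± 0.15 in Nr3c1 Foxp3-Cre Tregs (SD, n = 3 each), and the IL-27 receptor gene *Il27ra* had a log2 fold change of -0.0053 (SE 0.15). *Prdm1* and *Maf*, transcription factors that drive *Il10* in T cells, were at -0.20 (SE 0.17) and -0.11 (SE 0.14).

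In the IL-33 and IL-1 list, 12 of 13 genes had a row, and 2 had an unadjusted p under 0.05, *Il18rap* (log2 fold change 0.31, with groups that overlapped) and *Il33*. *Il33* encodes the ligand of ST2, which stromal cells make. It was at 2.23, 1.57 and 0.61 log2 CPM in control and -1.17, -0.65 and -0.12 in Nr3c1 Foxp3-Cre libraries, a log2 fold change of -2.12 (SE 0.53, limma adjusted p = 0.789). All 4 fibroblast genes also had a lower mean in Nr3c1 Foxp3-Cre libraries. Groups did not overlap for *Col1a1* (log2 fold change -1.87) and *Col1a2* (-1.69), and overlapped for *Pdgfra* and *Dcn*. The list summed to 203, 93.6 and 154 CPM in control against 35.9, 60.3 and 53.8 CPM. Within control the order differed: *Il33* was lowest in replicate 3 and the fibroblast sum in replicate 2. All 8 macrophage genes also had a lower mean in Nr3c1 Foxp3-Cre libraries, with groups that overlapped. The part of stromal RNA in the *Il33* values was not tested. *Il1rap*, the co-receptor of ST2, had a log2 fold change of 0.03 (SE 0.19). Of the EGF receptor ligand and shedding list, 6 of 10 genes had a row and 0 had an unadjusted p under 0.05.

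Among 12 tissue Treg regulators, all with a row, *Id2* and *Bach2* had an unadjusted p under 0.05 and groups that did not overlap. *Id2*, an inhibitor of E proteins expressed in effector Tregs, was at 9.09, 9.64 and 9.22 log2 CPM in control and 8.78, 8.47 and 8.64 in Nr3c1 Foxp3-Cre Tregs, a log2 fold change of -0.69 (SE 0.15, limma adjusted p = 0.544), the lowest adjusted p among the partner genes. *Bach2*, a repressor that restrains effector differentiation, was low, at 1.45, 1.52 and 1.42 against 2.31, 1.91 and 2.45 log2 CPM, a log2 fold change of 0.76 (SE 0.30, limma adjusted p = 1.0). *Gata3* and *Batf*, factors of the ST2-positive tissue Treg program, had log2 fold changes of -0.06 (SE 0.21) and -0.0090 (SE 0.12). Of 14 other suppressive mediators, all with a row, 10 had a lower mean, where 50.5% of all genes were lower. In each of the other partner lists more genes had a higher than a lower mean. The checkpoint receptor *Lag3* was at 4.25, 5.10 and 4.46 against 3.80, 3.25 and 3.98 log2 CPM (log2 fold change -0.93, SE 0.27), and *Nt5e*, which encodes the adenosine-producing ectoenzyme CD73, at 5.72, 6.36 and 6.60 against 6.81, 6.85 and 6.68 (log2 fold change 0.56, SE 0.20), each with a limma adjusted p of 1.0 and groups that did not overlap. The log2 fold change of *Nt5e* was 0.30 when control replicate 1 was left out and 0.25 under library quality weights.

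**Figure D5:**
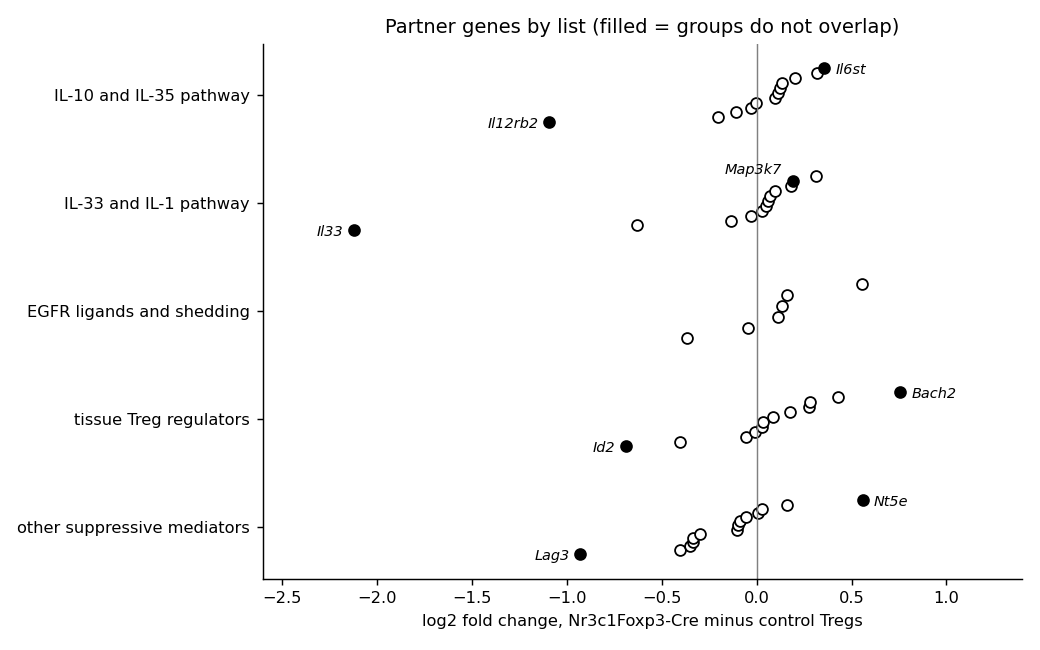
Log2 fold change of 56 partner genes, Nr3c1 Foxp3-Cre minus control Tregs (horizontal axis), by list. Filled points are genes whose groups do not overlap; *Il33* at -2.12 and *Bach2* at 0.76 are the extremes, and no gene had an adjusted p under 0.05.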

How the data were processed

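RNA-Seq values came from 6 libraries, grouped by the genotype in the sample labels, 3 per group, made with an ultra-low-input kit that does not mark the strand. For the deposited table the authors used Cutadapt for trimming, STAR for alignment to mm10 and RSEM with the GENCODE M21 annotation for counting, dropped genes of low count and applied quantile normalization. Its values are log2 CPM as deposited. Quantile normalization gives every library the same distribution, so differences in total RNA are not kept. Depth is unknown, and the number of libraries limits the precision. The weights of the authors' limma-voom fit need counts and were not recomputed.

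limma 3.58.1 (R 4.3.3) was run on the 12153 genes with lmFit and eBayes (trend = TRUE), with a genotype term alone, p-values being adjusted over all genes (Benjamini-Hochberg, 0.05), after tests on simulated data. For single genes an exact permutation test, two-sided, was added. Lengths and positions came from GENCODE M21, which matched 12119 genes (99.72%), and promoter windows from RefSeq. Alternatives were no trend, robust eBayes, vooma weights, library quality weights, cyclic loess, median centring, log2(CPM + 1), a minimum mean log2 value of 1, a replicate block and leaving out each library in turn; scaling to T cell markers was added after seeing the data. The members, partner lists and marker lists were chosen with earlier results of these data known. Genes named are the members, 4 genes of the GR check, 8 set partners, and, per partner list, up to 3 genes with the smallest unadjusted p under 0.05 and no overlap. Marker genes and *Il18rap* were named beside results they bear on.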

Additional observations from a re-analysis of the deposited data

How the results depend on the processing

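With 3 libraries a group the median half-width of a member's 95% interval was 0.49 on the log2 scale, so smaller differences could not be resolved. The adjusted p over all genes asked for more. *Tsc22d3* at -1.56 had a limma adjusted p of 0.0342, but *Nr3c1* at -1.38 had 0.120 and *Id2* at -0.69 had 0.544. An adjusted p above 0.05 therefore does not show that a member was unchanged. The count of members with an adjusted p under 0.05 was 0 in all 16 alternatives. Under library quality weights, *Ebi3* (0.041), *Il1r2* (0.25), *Penk* (0.0041), *Gata3* (0.020), *Batf* (0.058) and *Il1rap* (-0.0074) turned direction, and 5 members had a lower mean. An unadjusted p under 0.05 was found there for 2 members and 15 partner genes, against 11.3% of all genes. The cause was not tested. With T cell marker scaling, groups did not overlap for 3 members and 4.50% of all genes, against 0 and 7.41% as reported. An unadjusted p under 0.05 was found for 5 partner genes and 1.72% of all genes, against 8 and 3.26% as reported. Under library quality weights *Il12rb2* was at -0.59, and with log2(CPM + 1) *Il33* was at -1.22. Leaving out 1 library at a time gave 0 to 3 members with an unadjusted p under 0.05, against 2.39% to 5.78% of all genes. Groups did not overlap for 0 to 2 members, against 13.2% to 20.0% of all genes. From 3 to 9 members had a lower mean, and their median log2 fold change ran from -0.26 to 0.097. Partner genes with an unadjusted p under 0.05 numbered 6 to 14, the most without control replicate 2, where the share of all genes was also highest. The log2 fold changes that turned direction ranged from -0.23 to 0.061 for *Ebi3*, -0.32 to 0.16 for *Areg*, -0.34 to 0.13 for *Il1r2*, -0.18 to 0.53 for *Klrg1*, -0.20 to 0.050 for *Nfil3*, -0.42 to 0.24 for *Penk*, -0.12 to 0.028 for *Il10rb*, -0.16 to 0.12 for *Il27ra*, -0.12 to 0.19 for *Il1rap*, -0.26 to 0.19 for *Gata3*, -0.089 to 0.081 for *Batf* and -0.35 to 0.0055 for *Prdm1*. With no trend in eBayes, 0 genes of the whole table had an adjusted p under 0.05 in limma and 469 an unadjusted one. Same-numbered libraries deviated from their group means with correlations of -0.33 to -0.025 across genes. The uneven tumor RNA enters these values, so they cannot decide whether same-numbered libraries belong together. In the fit with a replicate block the members' median log2 fold change stayed at -0.12, 0 members had an adjusted or unadjusted p under 0.05, and of all genes 0 had an adjusted and 275, 6 of them partner genes, an unadjusted p under 0.05. *Il33* has no value at a minimum mean log2 value of 1.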
